A study of Mus musculus with 4 samples.

Results

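Of the 16473 peaks that a Foxo1 antibody gave in mouse regulatory T cells, 1034 were both strong in that list and overlapped by a peak obtained independently of the antibody, by streptavidin capture of biotinylated Foxo1. The regions were chosen by the antibody score and by the streptavidin overlap: each lay on chromosomes 1 to 19, had an antibody score of at least 419.04 and shared at least 1 base with a streptavidin peak. Antibody peaks at or above that cutoff are called strong below. The score is the authors' peak caller's own value for each peak, and a higher score stands for a clearer enrichment within 1 list. The 1034 regions made up 6.35% (95% exact binomial interval 5.98 to 6.74) of the 16282 autosomal antibody peaks and 29.1% (27.6 to 30.6) of the 3554 that overlapped a streptavidin peak. These values describe the choice and were not tested.

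Foxo1 is a forkhead transcription factor that enters the nucleus and binds short A- and T-rich DNA elements when PI3K and Akt signalling is low. Akt phosphorylates it and sends it back to the cytoplasm. In T cells Foxo1 is known for its control of homing and survival receptors such as L-selectin and the IL-7 receptor, and in regulatory T cells, which restrain other lymphocytes, it is needed for normal function. Chromatin immunoprecipitation followed by sequencing (ChIP-seq) recovers the DNA fragments attached to such a protein, and a peak is an interval where they pile up.

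The series held 4 libraries of nTreg cells, 1 per group. Wild-type B6 mice, whose Foxo1 is untagged, gave the antibody precipitation and its input. Foxo1tagBirA mice, whose own Foxo1 is biotinylated, gave the streptavidin precipitation and its input; BirA is a bacterial enzyme that attaches biotin to a tagged protein. The capture method and the mouse line changed together, so their effects cannot be told apart. The age of the mice and how many were pooled are not given in the sources used here, and neither are the read depths. With 1 library per group there was no replicate error, so no comparison below carries a test, and intervals cover counting error over peaks only. Neighbouring peaks are not independent, which makes these intervals too narrow.

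Antibody scores of the 1034 regions ran from 419.04 to 3226, with a median of 742 and quartiles of 541 and 1133. The 586 strong autosomal peaks without a streptavidin overlap had a median of 562 and quartiles of 474 and 748, and all autosomal antibody peaks had a median of 167. The lower end was set by the cutoff. At the upper end 26 regions had a score of exactly 3100 and 8 scored more, and whether 3100 is a ceiling of the scoring was not tested. These 34 regions are therefore described as 1 group, and their order by antibody score is not read as an order of enrichment.

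The overlapped peaks next to the cutoff were compared on both sides of it. The 5 lowest-scoring regions had antibody scores of 419.04, 419.21, 419.24, 419.98 and 421.16, and the streptavidin peaks over them scored 328, 230, 110, 65.2 and 104. The 5 overlapped peaks just under the cutoff had antibody scores of 418.8, 418.66, 418.59, 418.21 and 418.03, with streptavidin scores of 102, 59.3, 182, 53.1 and 88.8. Streptavidin scores of these 2 sets ran into each other, but 5 peaks per side are too few to tell whether there was a break.

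Streptavidin overlap became more frequent with the antibody score within the strong peaks. Of all 1620 strong autosomal peaks 63.8% (61.4 to 66.2) were overlapped, against 21.8% of all autosomal antibody peaks and 17.2% (16.6 to 17.8) of those under the cutoff. In the class from the cutoff to 500 the share was 46.6% (170 of 365 peaks, 41.4 to 51.8), and between 800 and 1000 it was 74.6% (138 of 185, 67.7 to 80.7). Between 1000 and 1500 it was 76.1% (156 of 205, 69.7 to 81.8), and from there up to 2000 it was 85.0% (68 of 80, 75.3 to 92.0). The share was 88.1% (59 of 67, 77.8 to 94.7) up to 3100 and 85.0% (34 of 40, 70.2 to 94.3) at 3100 or more. The intervals above 1500 overlap and are too wide to tell whether the share still rose there.

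**Figure D1:**
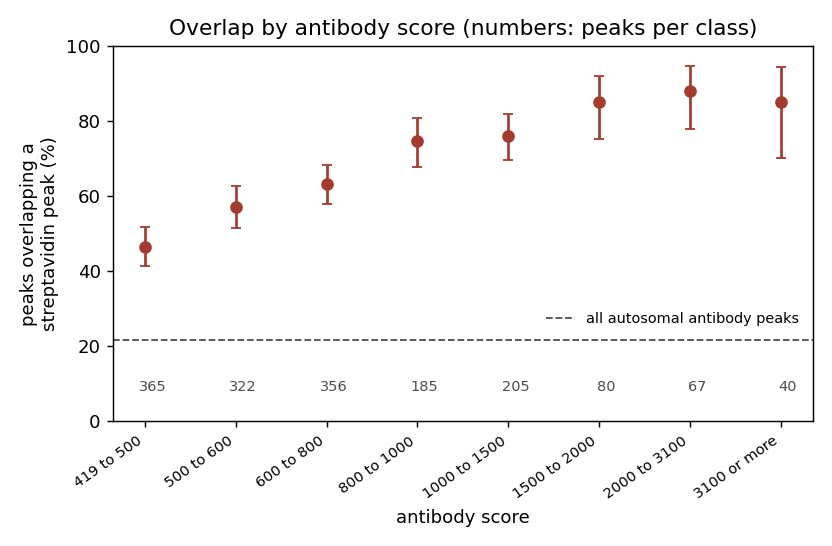
The share of strong autosomal antibody peaks that overlapped a streptavidin peak (vertical axis, percent, points with 95% exact intervals) is drawn for 8 classes of antibody score (horizontal axis), with the number of peaks in each class and a dashed line at the 21.8% of all autosomal antibody peaks. The share goes from 46.6% in the lowest class to 85.0% in the highest, and the classes above 1500 have wide, overlapping intervals.

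Overlap was also more frequent among wider peaks. Strong peaks narrower than 200 bases were overlapped in 42.6% (55 of 129, 34.0 to 51.6) and those of 700 bases or more in 81.1% (60 of 74, 70.3 to 89.3). Within 1 class of width the share still differed by score. Among strong peaks of 300 to 400 bases it was 57.9% (52.0 to 63.5) for scores under 800 and 77.1% (69.3 to 83.7) from 800 upward, and among those narrower than 300 bases it was 45.4% (40.1 to 50.7) and 71.7% (63.0 to 79.3).

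The regions themselves were wide for this list. Their median width was 391.5 bases (quartiles 302 and 508), against 336 (251.5 and 449) for strong peaks without overlap, 265 (205 and 346) for overlapped peaks under the cutoff and 233 for all autosomal antibody peaks. Streptavidin peaks over the regions had a median width of 340 bases, and all autosomal streptavidin peaks 221.

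On the streptavidin side the regions covered the whole range of scores. The strongest streptavidin peak over a region had a median score of 150 (quartiles 93.2 and 270, range 53.0 to 2748). Over the overlapped peaks under the cutoff the median was 90.8 (69.1 and 134), and over all 57096 autosomal streptavidin peaks it was 74.7. A streptavidin score of at least 100 was reached in 736 regions, or 71.2% (68.3 to 73.9), and in 41.8% (39.9 to 43.8) of the overlapped peaks under the cutoff. Of all autosomal streptavidin peaks 18.2% reached it. As scores and overlap come from the lists that chose the regions, nothing beyond this description is read from these shares.

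A minority of the regions rested on a weak streptavidin call. In 147 of them, or 14.2% (12.1 to 16.5), the streptavidin peak scored below the median of its own list, and the same held for 31.9% (30.0 to 33.7) of the overlapped peaks under the cutoff. The 5 regions with the lowest streptavidin scores had values of 53.0 to 53.1, next to the lowest score of that list. They lay at chr2:56967229-56967451, chr10:40068838-40069224, chr17:26639853-26640122, chr10:114687533-114687666 and chr19:5815747-5816341, and their antibody scores were 667, 431, 499, 685 and 803. In 4 of these 5 the peak centres were within 100 bases of each other, at 12.5, 99, 11 and 16 bases, and in the region on chromosome 19 they were 263 bases apart.

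The 2 scores were related across the 1034 regions with a Spearman's rho of 0.43. This is a description across regions of the same 2 libraries. Median streptavidin scores were 107 for antibody scores up to 500, 144 for 600 to 800, 204 for 1000 to 1500 and 675 for 3100 or more. Within each class the spread was wide, as from 53.1 to 511 in the lowest class and from 87.8 to 2748 in the highest.

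**Figure D2:**
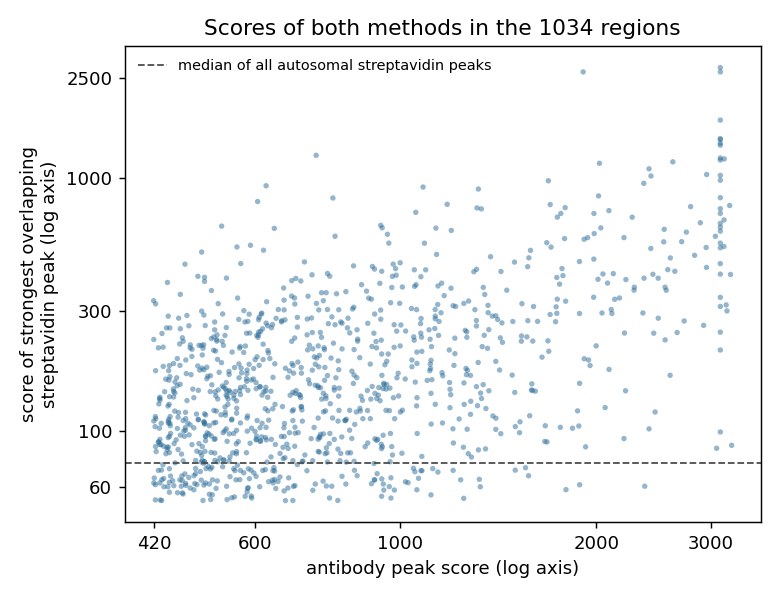
Each point is 1 of the 1034 regions, with its antibody score on the horizontal and the score of its strongest overlapping streptavidin peak on the vertical axis (both log axes). The dashed line marks the streptavidin median of 74.7, below which 147 regions lie, and the column of points at 3100 holds the 26 regions tied there.

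The 34 regions with an antibody score of 3100 or more had streptavidin scores of 87.8 to 2748, with a median of 675. Of the 8 that scored more than 3100, chr4:154937462-154938222 had an antibody score of 3226 and a streptavidin score of 87.8, with the streptavidin peak inside it. Another, chr1:30930348-30930972, had 3214 and 417 and was met by 2 streptavidin peaks, and chr7:90803781-90804171 had 3204 and 781. The regions chr12:81891347-81891621 and chr8:35869921-35870711 had antibody scores of 3174 and 3165 and streptavidin scores of 299 and 316. The remaining 3 were chr2:170144675-170144919, chr1:182125976-182126345 and chr7:137690247-137690514, with streptavidin scores of 1195, 685 and 538. Streptavidin scores of these 34 regions thus spread widely, but all lay above the median of 74.7 of all autosomal streptavidin peaks.

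The highest streptavidin scores mostly belonged to regions at the antibody score of 3100. Of the 10 regions with the highest streptavidin scores, 8 had exactly that antibody score, among them chr14:8930559-8930848 with 2748, chr4:33334492-33335019 with 2642, chr13:94269341-94269997 with 1702 and chr14:65962736-65962950 with 1438. The 2 others had lower antibody scores. One was chr4:33335132-33335759, with an antibody score of 1910. Its streptavidin score of 2642 is that of the same streptavidin peak that overlapped chr4:33334492-33335019. The other was chr13:113217665-113217966, whose antibody score of 744 was at the median of the regions while its streptavidin score was 1235, with centres 2 bases apart.

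Seen from the streptavidin list, the regions took most of the highest-scoring peaks and few of the rest. A region overlapped 47 of the 50 and 91 of the 100 highest-scoring autosomal streptavidin peaks, 321 of the first 500 (64.2%, 59.8 to 68.4) and 436 of the first 1000 (43.6%, 40.5 to 46.7). Over the whole list 1089 autosomal streptavidin peaks, or 1.91%, met a region, and 6.19% met any antibody peak. Of the 9 among the first 100 that met no region, 8 overlapped an antibody peak under the cutoff and 1 overlapped none. The highest of the 8, chr2:179905960-179906322 with a streptavidin score of 1047, had an antibody score of 224 over it, and the next, chr8:77517358-77518116 with 691, had 362.

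The peak centres of the 2 methods lay close together. The centres of the antibody peak and of its strongest streptavidin peak had a median separation of 55 bases (quartiles 23.6 and 103, range 0 to 547). They were within 50 bases in 479 regions, or 46.3% (43.3 to 49.4), within 100 bases in 73.9% (71.1 to 76.5) and within 200 bases in 92.5% (90.7 to 94.0). Overlapped peaks under the cutoff had a median of 59.5 bases, and 68.5% (66.6 to 70.3) were within 100 bases. These narrower peaks allow less distance before the overlap is lost, so the distances of the 2 sets are not on the same footing.

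The displacement was split almost evenly between both sides. The streptavidin centre lay at the lower coordinate in 505 regions, at the higher in 526 and at the same position in 3. Distance from centre to centre had a Spearman's rho of -0.04 with the antibody score and of 0.31 with the antibody peak's width across the 1034 regions, again as a description.

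**Figure D3:**
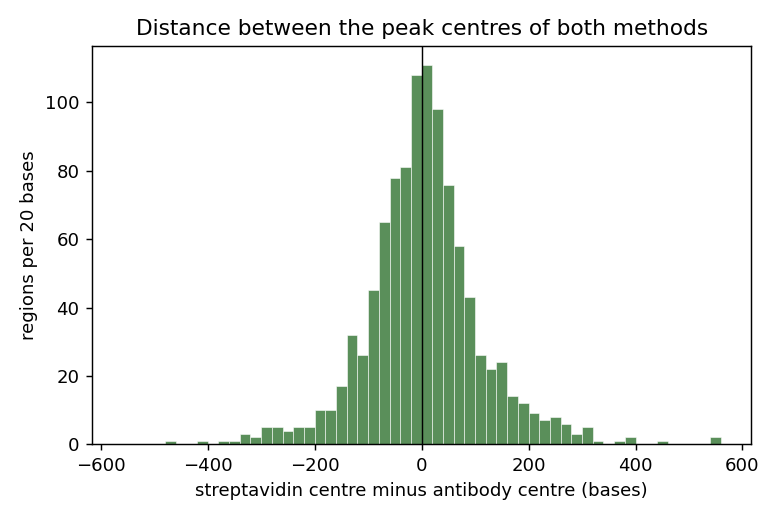
The histogram counts regions (vertical axis, per 20 bases) by the position of the streptavidin centre relative to the antibody centre (horizontal axis, bases). The counts peak at 0 and fall off on both sides, with 505 regions to the left and 526 to the right.

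In outline the 2 peaks of a region were arranged in 3 ways. Each peak reached beyond the other in 526 regions, or 50.9% (47.8 to 54.0). The streptavidin peak lay wholly inside the antibody peak in 312 (30.2%, 27.4 to 33.1), and the antibody peak inside the streptavidin peak in 196 (19.0%, 16.6 to 21.5). For overlapped peaks under the cutoff the 3 arrangements had shares of 64.2%, 14.8% and 20.9%. The shared stretch had a median length of 284 bases and covered at least 50% of each peak in 815 regions (78.8%, 76.2 to 81.3).

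Most regions paired 1 antibody with 1 streptavidin peak. A single streptavidin peak overlapped 976 regions, 2 overlapped 57, and 3 overlapped 1, chr2:126500763-126501710. This 948-base antibody peak with a score of 1536 was met by streptavidin peaks with scores of 238, 184 and 116 along its length, and the middle one was centred 19.5 bases from its own centre. The reverse, 1 streptavidin peak over 2 regions, occurred 4 times. At chr4:33334428-33335734 a single streptavidin peak of 1307 bases with a score of 2642 spanned 2 antibody peaks with scores of 3100 and 1910, and its centre was 325.5 and 364.5 bases from theirs. Another such peak, chr14:103498080-103499151, with a score of 727, spanned antibody peaks with scores of 1984 and 1765. The other 2 streptavidin peaks of this kind had scores of 282 and 88.4.

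One region was far wider than the rest. This region, chr17:39979901-39983708, was 3808 bases long, with an antibody score of 921, and the streptavidin peak over it was 3719 bases long, the widest on the autosomes. The next in width, chr10:96079135-96080315, was 1181 bases long and overlapped 2 streptavidin peaks. The third, chr2:98506355-98507501, was 1147 bases long with an antibody score of 460, and its streptavidin peak of 1181 bases began at the same base. Regions were not screened for repeats, since no repeat annotation of mm9 was used here. Whether these widest regions lie in repeats was therefore not tested.

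The regions were spread over all 19 autosomes at 0.43 per Mb between the outermost peaks. Chromosome 11 was densest, with 86 regions or 0.725 per Mb, followed by chromosome 19 with 37 or 0.637 and chromosome 5 with 87 or 0.583. Chromosome 14 was sparsest, with 29 or 0.249 per Mb, and chromosome 1 had 55 or 0.283. The whole antibody list was also densest on chromosome 11, at 10.4 peaks per Mb. It was sparsest on chromosome 3, at 5.03 per Mb, and had 5.62 per Mb on chromosome 14. Chromosome 14 held 4.02% of the autosomal antibody peaks and 2.80% of the regions. The share of strong peaks that was overlapped ranged from 52.7% (29 of 55, 38.8 to 66.3) on chromosome 14 to 71.0% (44 of 62, 58.1 to 81.8) on chromosome 12, and every chromosome's interval included the 63.8% of the autosomes as a whole.

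**Figure D4:**
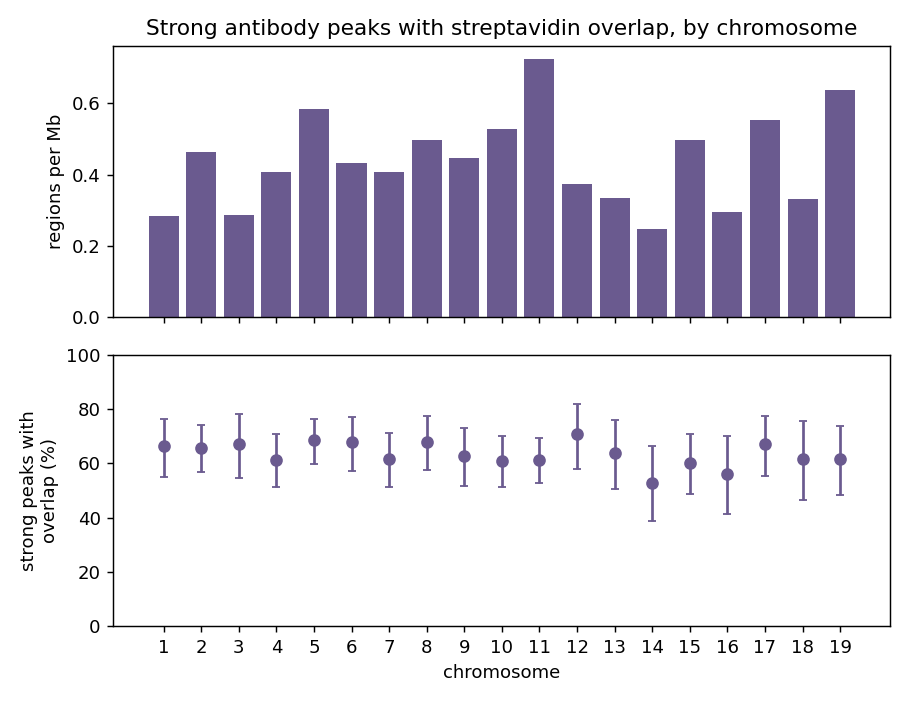
The upper panel gives the regions per Mb on each autosome as bars, and the lower panel the percent of strong antibody peaks that overlapped a streptavidin peak, as points with 95% exact intervals. Density runs from 0.249 on chromosome 14 to 0.725 on chromosome 11, while the intervals of the shares all reach 63.8%.

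Few regions lay close together. The nearest other region was a median of 273 kb away, and 101 regions, or 9.77% (8.03 to 11.7), had another within 10 kb. Among strong peaks without overlap 3.41% (2.10 to 5.22) had another of their own kind within 10 kb, in a set with fewer peaks. With antibody peaks within 1 kb of each other joined, these shares were 4.74% (3.53 to 6.22) and 1.85% (0.890 to 3.37). Within 1 kb there were 24 pairs of neighbouring regions, with centres 359.5 to 969.5 bases apart, and in 20 pairs each region had a strongest streptavidin peak of its own.

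By fixed windows of 1 Mb, 668 of 2420 windows held a region, and 6 windows held 6 regions, the highest number. The window chr15:97000001-98000000 held 6 regions among 8 strong peaks, with antibody scores of 497 to 2550. Of these, chr15:97299897-97300259 and chr15:97300389-97300744 were neighbours with antibody scores of 964 and 2550 and streptavidin scores of 120 and 371. In each of the other 5 windows, chr2:30000001-31000000, chr9:32000001-33000000, chr17:84000001-85000000, chr19:53000001-54000000 and chr4:32000001-33000000, all 6 strong peaks were overlapped. These windows were picked for holding the most regions, which favours a full overlap. In chr10:80000001-81000000 5 of 14 strong peaks were overlapped, and 63.8% were on the autosomes as a whole. Antibody scores in the window on chromosome 2 ran from 430 to 1193 and in that on chromosome 9 from 558 to 1284.

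Antibody peaks under the cutoff, none of which could be chosen, were common beside the regions. Such a peak was centred within 1 kb of 227 regions (21.95%, 19.5 to 24.6) and within 10 kb of 472 (45.6%, 42.6 to 48.7). The shares were 19.8% (16.6 to 23.3) and 37.7% (33.8 to 41.8) for strong peaks without overlap, and 14.4% and 32.7% for all autosomal antibody peaks. At 1 to 5 kb from the centre there were 34.3 antibody peaks under the cutoff per Mb around the regions, against 19.0 around strong peaks without overlap, 25.8 around overlapped peaks under the cutoff and 19.9 around all autosomal antibody peaks. At 50 to 100 kb the values were 14.4, 16.1, 13.5 and 12.3 in the same order. With strong neighbours counted as well, another antibody peak lay within 10 kb of 50.9% of the regions and 47.9% of overlapped peaks under the cutoff. That share was 41.8% for strong peaks without overlap and 35.8% for all autosomal antibody peaks. Within 1 kb another antibody peak lay near 26.3% of the regions and 26.2% of overlapped peaks under the cutoff. Strong peaks without overlap had 21.0% there, and all autosomal antibody peaks 16.5%.

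Streptavidin peaks at the same distances differed less between the sets. At 1 to 5 kb there were 36.9 streptavidin peaks per Mb around the regions, 30.1 around strong peaks without overlap and 35.3 around all autosomal antibody peaks, and at 10 to 50 kb 32.3, 33.6 and 32.2. Counting only streptavidin peaks that overlapped no antibody peak, the density at 1 to 5 kb was 24.4 per Mb around the regions, 23.7 around strong peaks without overlap and 28.2 around all autosomal antibody peaks. Of the 448 antibody peaks under the cutoff that lay 1 to 10 kb from a region, 125, or 27.9% (23.8 to 32.3), were themselves overlapped by streptavidin. The share was 19.7% (14.1 to 26.3) of the 178 beside strong peaks without overlap, 28.5% (25.4 to 31.7) of the 817 beside overlapped peaks under the cutoff and 21.6% (20.3 to 23.0) beside all autosomal antibody peaks. These shares were not tested against each other, and the interval beside the regions includes the share beside weaker overlapped peaks.

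**Figure D5:**
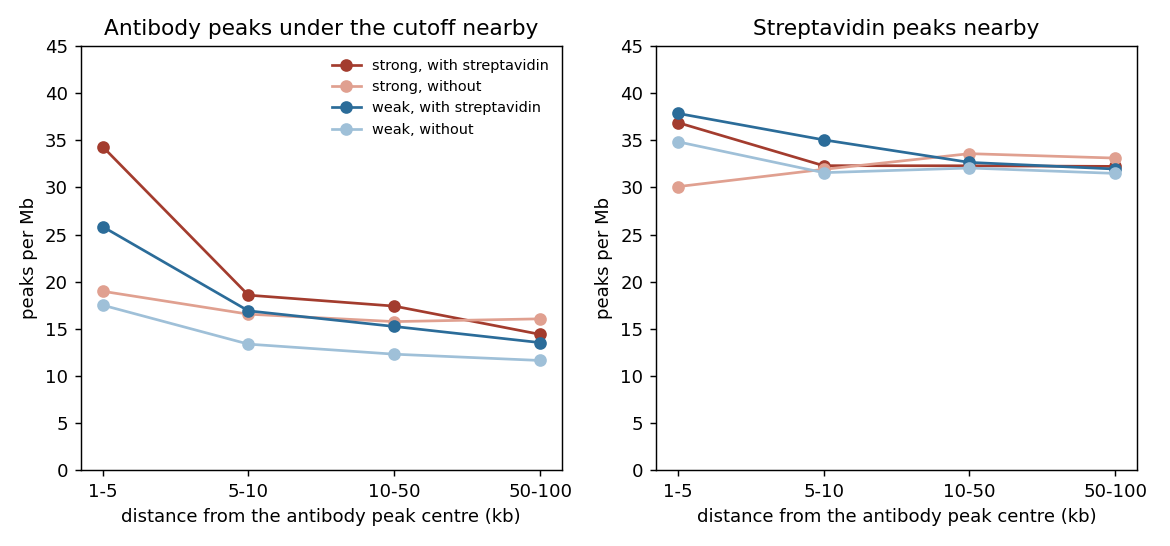
Peaks per Mb (vertical axis) are drawn by distance from the antibody peak centre (horizontal axis, kb) for the 4 sets of autosomal antibody peaks, strong or weak (under the cutoff) and with or without streptavidin overlap, with antibody neighbours under the cutoff on the left and streptavidin neighbours on the right. Antibody neighbours under the cutoff at 1 to 5 kb reach 34.3 per Mb around strong overlapped peaks, and streptavidin neighbours lie between 30.1 and 37.8 at that distance.

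All 1034 regions lay wholly inside an interval of the third deposited list. This list is named for both methods but attached to the antibody input sample, and it was treated as coming from the same libraries. Regions were chosen for an overlap of both methods, so this coverage was largely set by the choice. With a cutoff of 300 the covered share was 100% as well. They fell in 1023 of its 3431 intervals (29.8%, 28.3 to 31.4), 11 of which held 2 regions. These intervals had a median width of 573 bases (quartiles 458 and 719.5) and covered 0.626 Mb, against a median of 408 bases for the 2408 intervals without a region. In 299 regions (28.9%, 26.2 to 31.8) the interval was exactly the stretch from the outer end of one peak to the outer end of the other.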

How the data were processed

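The authors deposited peak lists, not reads. The submitters' processing notes name MACS 1.4, Bowtie 0.12.7, CASAVA 1.4 and the build mm9, without settings, and the deposited lists' names state a false discovery rate of 0.01. The score of each peak is the authors' peak caller's own value and was used within its list. The third deposited list gives positions only. The control library of each call, any pooling and the read depth are not given in the sources used here.

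Regions were chosen by a script in Python 3.11.15 (NumPy 2.4.6, SciPy 1.17.1, pandas 2.3.3), and bedtools 2.31.1 gave the same 1034. The overlap and distance code was tested on simulated data. A region's streptavidin score is that of the highest-scoring overlapping peak, distances run between interval midpoints, and intervals are exact Clopper-Pearson at 95%. Coordinates are mm9, counted from 1. The regions and lists were chosen with earlier results of these data known. Named were the 10 highest by antibody score, part of the 10 highest by streptavidin score, the 5 lowest by streptavidin score and the 3 widest. Regions with 3 streptavidin peaks were named too, as were 3 of the 6 windows tied at the most regions, ordered by strong and then all antibody peaks. The 5 peaks on each side of the cutoff were given by their scores only. Ties in antibody score were ordered by streptavidin score. Other named peaks (streptavidin peaks over 2 regions or over none) and windows, and the counts of neighbours under the cutoff, were chosen after their values were seen. Chromosome 18 was counted and not named. No sequence or gene of mm9 was used here, so motifs, gene positions and gene lists were not analysed.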

Additional observations from a re-analysis of the deposited data

How the results depend on the processing

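With a cutoff of 300 the overlapped share of strong peaks was 52.2%, the median streptavidin score 135 and the median width 374 bases; with 600 the regions numbered 680, the share was 72.9%, and the medians were 185 and 410. Since the share rises with score, a lower cutoff lowers it by construction. The share was 50.7% with an overlap of 50% of each peak, 47.8% with centres within 100 bases and 45.4% with streptavidin scores of at least 100, all stricter rules. Regions with another within 10 kb fell from 9.77% to 4.74% once antibody peaks within 1 kb were joined, which removes the closest pairs. The number of regions was 1045 with X and Y, all 11 more on X. The median centre distance was 51.5 to 55.5 bases in its 5 alternatives. The cutoffs for the third list, and all alternatives for nearby streptavidin peaks, were chosen after seeing the data; each stayed within the interval of its value. No replicate could be left out and no paired analysis was possible because each group has 1 library. Alternatives on sequence and genes were not run without the mm9 genome. Unknown depth leaves unmeasured whether strong peaks without overlap fell just under the streptavidin threshold.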
